A study of Mus musculus with 4 samples.

Results

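The genes described here encode the nucleosome remodelling and deacetylase complex, NuRD, a chromatin complex that is bound by the lymphoid zinc finger factor Ikaros. The members were the 10 genes Chd3, Chd4, Mta1, Mta2, Mta3, Hdac1, Hdac2, Mbd3, Gatad2a and Gatad2b, found by gene symbol among 23420 rows of counts per gene. RNA was sequenced from 4 libraries of a mouse large pre-B cell line, 2 labelled shMyb and 2 labelled shLuc. The cells of both groups were Irf4/8-/-, so neither group had functional Irf4 or Irf8, and both grew on the stromal line OP9 in medium with 10 ng/ml of interleukin 7. Retroviruses, delivered with polybrene, brought in a hairpin RNA together with a green fluorescent reporter. The hairpin was directed at the Myb mRNA in the shMyb group and at luciferase mRNA, a control target, in the shLuc group. Fluorescent cells were sorted after 72 hours in culture. The duplicates of a group were separate sets of 12 wells of a single line, and the spread behind each p-value is that between sets of wells, which may be technical.

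NuRD joins an ATP-driven remodeller that moves nucleosomes (Chd3 or Chd4) to the histone deacetylases Hdac1 and Hdac2, which remove acetyl groups from histone tails. The MTA proteins are the scaffold that holds the deacetylases, a methyl-CpG-binding domain protein (Mbd2 or Mbd3) occupies a further position, and Gatad2a or Gatad2b links that protein to the remodeller. In lymphocytes a large part of Ikaros is found in NuRD, and Chd4 is required for early B cell development in mice.

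Depth ran from 36573743 to 44682954 counts per library, and 12610 genes were tested. Myb itself was at 617 and 639 CPM (counts scaled to a common library size with TMM factors) in the libraries labelled shMyb, against 616 and 600.1 CPM in those labelled shLuc. The log2 fold change of Myb was 0.05 (edgeR adjusted p = 0.283), so the hairpin's target was not called lower and directions are given by library label. Myb was called higher with library totals (0.11, adjusted p = 0.0109) and with the trend on abundance removed (0.15, adjusted p = 4.0e-04). Pre-B cell markers summed to 5812 and 5731 CPM over 10 genes in the libraries labelled shMyb and to 6375 and 6480.4 CPM in those labelled shLuc. Lists of 10 stromal, 10 myeloid, 9 T cell and 7 erythroid markers summed to 40.1 and 46.5, 7.49 and 9.13, 14.2 and 13.02, and 6.54 and 9.19 CPM in the libraries labelled shMyb. In those labelled shLuc the same lists summed to 45.3 and 34.6, 4.43 and 3.44, 28.9 and 29.4, and 4.48 and 1.81 CPM. Cd4, Cd8a, Cd8b1, Elane, Hba-a1 and Hba-a2 had no count in any library, and Zap70 made up most of the T cell sum. Bcl11b stands both in the T cell list and among the recruiting factors described below. Of 9 tested stromal markers 1 was called higher and 2 lower, beside 30.6% and 31.7% of all tested genes. The 6 tested myeloid markers all averaged below 10 CPM, and 4 were called higher. That stands beside 34.3% called higher among genes below 1 CPM and 39.7% from 1 to 10 CPM. The part of stromal, myeloid, T or erythroid cells in the results below was not tested.

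All 10 NuRD genes passed the low-count filter, with 964 to 38396 counts per library. Chd3 rose, Mta1, Mta2, Hdac1, Hdac2, Mbd3 and Gatad2a fell, and Chd4, Mta3 and Gatad2b did not pass the test. Of the 10, 7 were called in either direction, beside 62.2% of all tested genes. The 1 called higher stands beside 30.6% of all tested genes, and the 6 called lower beside 31.7%. Over all tested genes 3855 were called higher and 3994 lower, or 4667 and 3103 when libraries were scaled by their totals alone. Of genes that averaged 100 to 300 CPM 44.3% were called lower, and all 5 members at that level (Mta1, Hdac1, Hdac2, Mbd3 and Gatad2a) were among them. Of genes from 300 to 1000 CPM 54.2% were called lower, and 1 of the 3 members there (Mta2, but not Chd3 or Chd4) was. The median log2 fold change of the 10 members was -0.11, against 0.0048 over all tested genes, -0.05 at 100 to 300 CPM and -0.11 at 300 to 1000 CPM. The groups did not overlap in 8 of the 10 members, beside 82.1% of all tested genes. Of these 8, 1 was higher, beside 41.0%, and 7 were lower, beside 41.2%. Chd3 was the single member called higher.

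**Figure D1:**
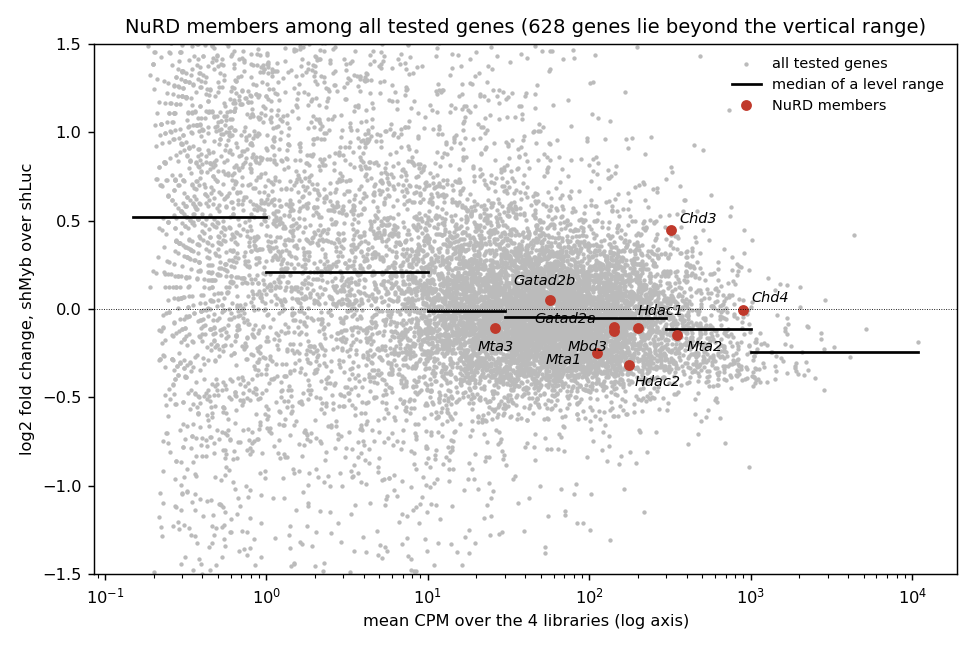
Log2 fold change of libraries labelled shMyb over those labelled shLuc (vertical axis, cut at 1.5 either way) against the mean CPM over the 4 libraries (horizontal log axis) for 12610 tested genes, with the NuRD members in red and the median of each level range as a black line. Chd3 lies at 0.45, well above the line of its level range at -0.11, while the others lie between -0.32 and 0.05.

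Summed over the 10 members, the level was 2392 and 2401 CPM in the libraries labelled shMyb and 2440.1 and 2422 CPM in those labelled shLuc. These sums are of CPM not divided by gene length, so long genes such as Chd3 (8443 bases of exon) weigh more than short ones such as Mbd3 (1987). Sums per kilobase were not made, so the closeness of the groups holds for CPM only. Of the remodeller pair only Chd3 was called, and Chd4 overlapped between the groups. Chd3 and Chd4 together had 1242 and 1269.8 CPM in the libraries labelled shMyb, against 1176 and 1145 CPM in those labelled shLuc. The other 8 genes together had 1149.99 and 1131 CPM, against 1264 and 1277 CPM in those labelled shLuc.

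Promoters of 7 of the members were listed in the RefSeq table (build GRCm38.p6), as 10 windows of 300 bases that run from 250 before to 50 after an annotated start. Those 10 windows were 54.3% to 81% G and C and held 16 to 50 CpG dinucleotides, against medians of 52.7% and 7 over 32851 promoters. Both strands were searched for CAACTG and for the shorter core AACNG, letters bound by Myb, and for TGGGAA and the shorter core GGGAA, letters bound by Ikaros. Each shorter core is contained in the longer motif. CAACTG stood in 1 of the 10 member promoters and in 13.7% of all promoters, and TGGGAA in 1 of 10 and in 25.6%. AACNG stood in 6 of 10 against 80.3%, and GGGAA in 4 of 10 against 62.7%. The windows of Chd4 overlap, and their AACNG is the same site counted in each. By gene, AACNG stood in 5 of the 7 members and GGGAA in 3. The sequences of 3 are printed. Hdac2 was taken as the member with the largest fall when no trend was removed. Mbd3 and Gatad2a were taken because they hold the only longer motifs. Capitals mark CAACTG in Mbd3 and TGGGAA in Gatad2a, and the Hdac2 window held none of the 4. A match or its absence describes these letters only and says nothing of binding.
Hdac2 (chr10:36974294-36974593, plus strand): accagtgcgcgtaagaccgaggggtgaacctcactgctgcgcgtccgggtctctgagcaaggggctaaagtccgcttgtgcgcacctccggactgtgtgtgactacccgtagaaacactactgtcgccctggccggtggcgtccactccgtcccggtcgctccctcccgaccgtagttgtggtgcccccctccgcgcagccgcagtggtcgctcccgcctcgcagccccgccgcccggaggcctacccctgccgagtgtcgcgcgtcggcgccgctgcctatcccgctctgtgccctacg
Mbd3 (chr10:80399482-80399781, minus strand): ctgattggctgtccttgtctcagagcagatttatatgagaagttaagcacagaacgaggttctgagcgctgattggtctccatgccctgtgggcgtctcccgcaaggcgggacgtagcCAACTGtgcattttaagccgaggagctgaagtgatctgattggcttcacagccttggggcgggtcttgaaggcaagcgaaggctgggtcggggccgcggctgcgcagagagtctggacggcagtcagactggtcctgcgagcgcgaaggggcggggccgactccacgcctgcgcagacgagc
Gatad2a, downstream start (chr8:69974334-69974633, minus strand): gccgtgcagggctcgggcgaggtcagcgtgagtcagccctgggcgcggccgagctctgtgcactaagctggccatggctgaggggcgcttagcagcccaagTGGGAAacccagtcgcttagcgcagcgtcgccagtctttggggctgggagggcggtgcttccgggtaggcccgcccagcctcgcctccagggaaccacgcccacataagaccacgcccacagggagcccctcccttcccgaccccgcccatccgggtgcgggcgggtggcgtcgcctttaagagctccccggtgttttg

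**Figure D2:**
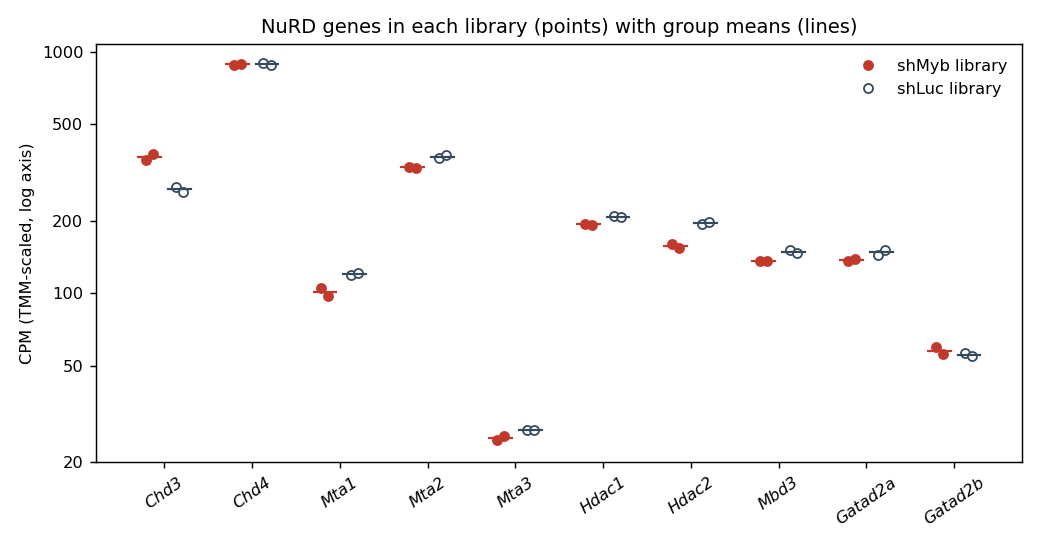
CPM on a log axis for the 10 NuRD genes, with libraries labelled shMyb as filled points left of those labelled shLuc as open points, and lines for the means of 2. Chd3 is higher in both libraries labelled shMyb, Chd4 overlaps between the groups, and Hdac2 and Mta1 show the widest downward gaps.

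The remodeller genes parted. Chd3 (GRCm38, chromosome 11, 69343273 to 69369406, minus strand, protein coding) had 358 and 377 CPM in the libraries labelled shMyb, against 276 and 264 CPM in those labelled shLuc. Both libraries labelled shMyb lay above both others. The means were 368 ± 13.6 and 269.8 ± 8.53 CPM (SD, n = 2 each), a log2 fold change of 0.45 (SE 0.04, 95% interval 0.37 to 0.52, edgeR adjusted p = 3.2e-10). In RNA from whole cell populations, more cells that express a gene and more RNA per cell cannot be told apart. With a trend on GC content and gene length removed, the value was 0.28 (adjusted p = 3.8e-07).

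Chd4 (chromosome 6, 125095981 to 125130591, plus strand, protein coding), the main remodeller of NuRD in lymphocytes, was the most abundant member. It had 884 and 893 CPM in the libraries labelled shMyb and 899.9 and 881 CPM in those labelled shLuc. The groups overlapped, with a log2 fold change of -0.0037 (95% interval -0.08 to 0.07, edgeR adjusted p = 0.939). Both the sign and the call depended on the scaling. Chd4 was called lower with the GC and length trend removed (-0.10, adjusted p = 0.0078) and higher with the trend on abundance removed (0.13, adjusted p = 0.0010).

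Per kilobase of exon, Chd3 made up 27.8% and 28.6% of the summed Chd3 and Chd4 level in the libraries labelled shMyb, against 22.6% and 22.1% in those labelled shLuc. Both shares of the libraries labelled shMyb were above both others. The difference was 5.87 percentage points, with an exact two-sided permutation p of 0.3333, the smallest that 2 against 2 libraries allow. Chd4 was thus at 2.60 and 2.49 times the per-length level of Chd3 in the libraries labelled shMyb and at 3.43 and 3.52 times in those labelled shLuc. These shares do not depend on how libraries are scaled to each other.

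**Figure D3:**
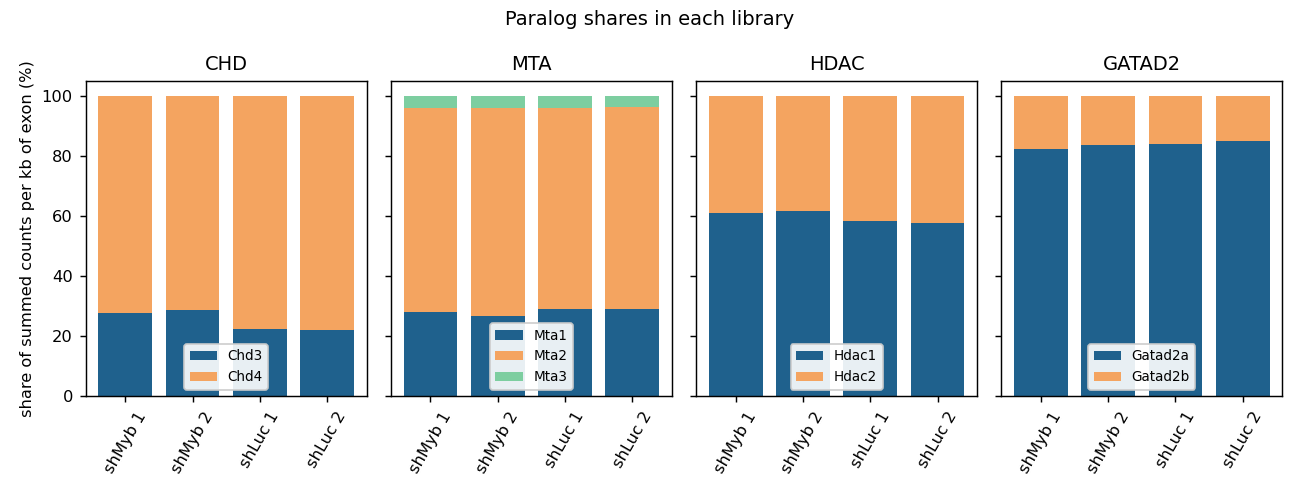
Share of each paralog in the summed counts per kilobase of exon of its family (percent, bars stacked from 0), for the 2 libraries labelled shMyb and then the 2 labelled shLuc. The Chd3 share is 27.8% and 28.6% against 22.6% and 22.1%, and the Hdac1 share 61.0% and 61.8% against 58.3% and 57.6%.

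Both deacetylase genes fell, Hdac2 by more. Hdac2 (chromosome 10, 36974544 to 37001889, plus strand, protein coding) had 161 and 154 CPM in the libraries labelled shMyb, against 194 and 197 CPM in those labelled shLuc, with no overlap. This gave 0.804-fold the shLuc level, the largest fall among the members in this fit (log2 -0.32, 95% interval -0.39 to -0.24, SE 0.04, edgeR adjusted p = 6.8e-08). With the GC and length trend removed, Hdac2 was at -0.23 and Mta1 fell further, at -0.33.

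Hdac1 (chromosome 4, 129516104 to 129542713, minus strand, protein coding) had 194 and 192 CPM in the libraries labelled shMyb, against 209 and 206 CPM in those labelled shLuc. The groups did not overlap, but the gap was small, at a log2 fold change of -0.10 (SE 0.04, edgeR adjusted p = 0.0132). The call ended with library totals (-0.04, adjusted p = 0.262), with the abundance trend removed (-0.07, 0.0717), with the GC and length trend removed (-0.05, 0.203) and without either shLuc replicate (0.0513 each). Gm10093 shares 1444 bases with Hdac1 at 99.4% identity and AC125456.1 shares 1450 bases at 96.3%. Neither copy has a row under its name among the counts, so reads from the copies cannot be seen apart. The Hdac1 level is uncertain for that reason.

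Hdac1 held 61.0% and 61.8% of the summed Hdac1 and Hdac2 level per kilobase in the libraries labelled shMyb, against 58.3% and 57.6% in those labelled shLuc. The difference of 3.51 percentage points had an exact permutation p of 0.3333, again the smallest possible. Summed as CPM, the pair had 354 and 346 in the libraries labelled shMyb and 403 and 404 in those labelled shLuc.

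The scaffold genes Mta1 and Mta2 fell. Mta1 (chromosome 12, 113098278 to 113137206, plus strand, protein coding), first known as a metastasis-associated gene, had 105 and 97.4 CPM in the libraries labelled shMyb, against 119 and 122 CPM in those labelled shLuc. The groups did not overlap, and the log2 fold change was -0.25 (SE 0.04, edgeR adjusted p = 7.7e-06). Mta2 (chromosome 19, 8941875 to 8952303, plus strand, protein coding), the most abundant MTA gene here, had 334 and 330.5 CPM in the libraries labelled shMyb, against 364 and 372 CPM in those labelled shLuc. That was a log2 fold change of -0.15 (SE 0.04, edgeR adjusted p = 9.2e-04), again with no overlap. With library totals Mta2 was at -0.09 (adjusted p = 0.0256), and with the abundance trend removed at -0.08 (0.0282).

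Mta3 (chromosome 17, 83706163 to 83821516, plus strand, protein coding), known in germinal centre B cells as a partner of the repressor Bcl6, was the least abundant member by CPM. It had 24.7 and 25.7 CPM in the libraries labelled shMyb and 27.2 and 27.0 CPM in those labelled shLuc. Although the groups did not overlap, Mta3 did not pass the test (log2 fold change -0.11, 95% interval -0.22 to 0.0082, edgeR adjusted p = 0.0993). It was called lower with the GC and length trend removed (-0.19, adjusted p = 0.0049).

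Within the MTA family, Mta2 held 67.9% and 69.0% of the summed level per kilobase in the libraries labelled shMyb and 67.1% and 67.3% in those labelled shLuc. Mta1 held 28.2% and 26.8% in the libraries labelled shMyb, against 29.0% in both labelled shLuc. Mta3 held 3.87% and 4.13%, against 3.86% and 3.76%. The differences were 1.29 points for Mta2, -1.48 for Mta1 and 0.19 for Mta3, and each exact permutation p was 0.3333.

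Mbd3 (chromosome 10, 80392539 to 80399550, minus strand, protein coding), the methyl-CpG-binding domain protein of a NuRD form that does not bind methylated DNA strongly, had 137 and 136 CPM in the libraries labelled shMyb, against 151 and 146 CPM in those labelled shLuc. The groups did not overlap, and the log2 fold change was -0.12 (SE 0.04, edgeR adjusted p = 0.0053). The call ended with library totals (-0.06, adjusted p = 0.134), and with the GC and length trend removed the value was -0.21.

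Of the GATA zinc finger linker genes, Gatad2a fell and Gatad2b did not pass. Gatad2a (chromosome 8, 69907076 to 69996384, minus strand, protein coding) had 136 and 139 CPM in the libraries labelled shMyb, against 144 and 151 CPM in those labelled shLuc, without overlap (log2 fold change -0.10, SE 0.04, edgeR adjusted p = 0.0213). That call ended with library totals (-0.04, adjusted p = 0.346), with the abundance trend removed (-0.07, 0.106), with DESeq2 (0.0797), without shMyb replicate 1 (0.0915) and without shLuc replicate 2 (-0.06, 0.279). With the GC and length trend removed it was at -0.21.

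Gatad2b (chromosome 3, 90293178 to 90363407, plus strand, protein coding) had 59.7 and 55.9 CPM in the libraries labelled shMyb and 56.6 and 54.9 CPM in those labelled shLuc. The groups overlapped (log2 fold change 0.05, 95% interval -0.04 to 0.14, edgeR adjusted p = 0.317). With library totals it was called higher (0.11, adjusted p = 0.0301). An exon of Gatad2b overlaps 4930537H20Rik on the opposite strand, which has no row under its name among the counts. The kit keeps strand, but the strand setting of the counting is not given in the sources used here, so reads of the overlap may not be told apart. Gatad2a held 82.4% and 83.6% of the summed level of the pair per kilobase in the libraries labelled shMyb, against 83.9% and 84.9% in those labelled shLuc.

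Levels per kilobase of exon ordered the members, and here too Chd3 moved. In the libraries labelled shMyb the order was Chd4 (111 CPM per kilobase), Mta2 (81.1), Mbd3 (68.7), Hdac1 (56.0), Chd3 (43.5), Hdac2 (35.2), Mta1 (32.6), Gatad2a (24.6), Gatad2b (5.05) and Mta3 (4.74). In those labelled shLuc, Hdac2 (43.7) and Mta1 (38.8) stood above Chd3 (32.0), and Mta3 (5.10) above Gatad2b (4.87). No neighbours in either order overlapped between their 2 libraries. The order of Mbd3 and Hdac1 turned in both groups when the longest transcript stood in for the union of exons.

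Further NuRD subunits outside the 10 genes went the same way as the deacetylases. Of 5 listed, 4 were tested and all 4 fell (median log2 fold change -0.32), beside 31.7% called lower among all tested genes, 44.3% at 100 to 300 CPM and 54.2% at 300 to 1000 CPM, while Chd5, a remodeller best known from neurons, was below the filter with 3 to 15 counts. Mbd2, the alternative to Mbd3 that binds methylated CpG, had 205 and 193 CPM in the libraries labelled shMyb, against 319 and 325 CPM in those labelled shLuc. This was a log2 fold change of -0.70 (SE 0.04, edgeR adjusted p = 4.0e-14), 0.616-fold and beyond any of the 10 members. The histone-binding genes Rbbp4 and Rbbp7, shared with the SIN3 and Polycomb complexes, followed. Rbbp4 had 489 and 454 CPM in the libraries labelled shMyb, against 573 and 587 CPM in those labelled shLuc (-0.30, adjusted p = 4.2e-07). Rbbp7 had 339 and 331 CPM, against 423 and 429 CPM in those labelled shLuc (-0.35, adjusted p = 9.2e-09, or -0.21 with the GC and length trend removed). Cdk2ap1, a small subunit, had 26.1 and 24.9 CPM, against 31.1 and 29.3 CPM in those labelled shLuc (-0.24, adjusted p = 5.5e-04). Groups overlapped in none of the 4. Over all tested genes, 82.1% had no overlap, and 41.2% had no overlap and were lower. Gm6382 matches 942 bases of Rbbp7 at 97.1% identity and Gm12184 matches 1299 bases of Cdk2ap1 at 99.4%. Neither copy has a row under its name, so the Rbbp7 and Cdk2ap1 counts are uncertain.

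**Figure D4:**
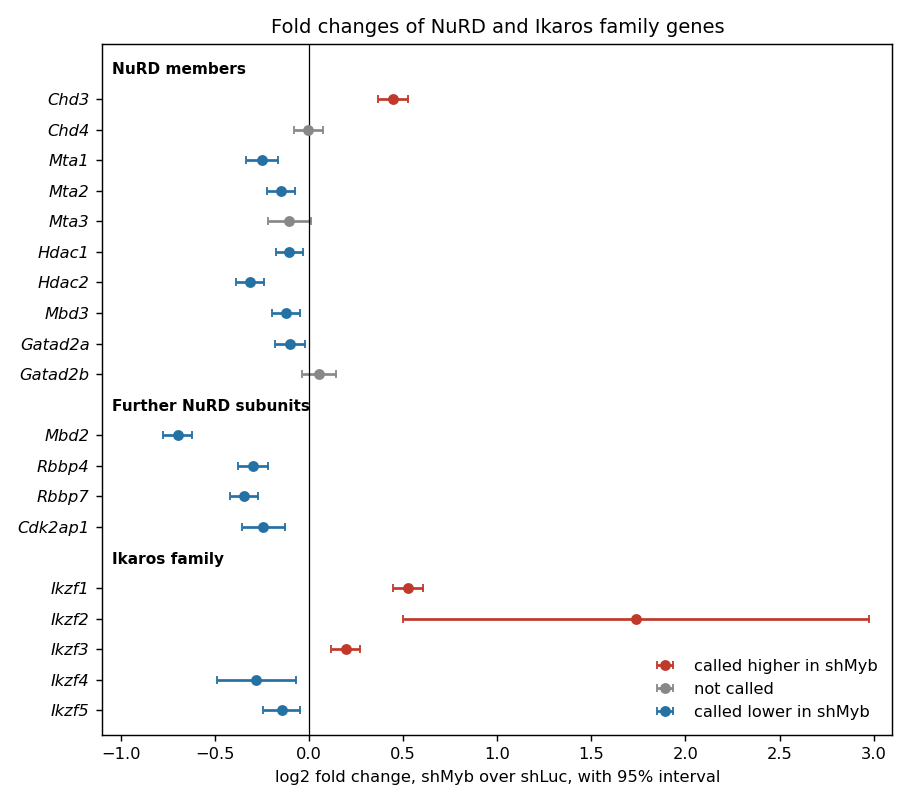
Log2 fold change of libraries labelled shMyb over those labelled shLuc with its 95% interval for the NuRD members, 4 further subunits and the Ikaros family, coloured by call. All 4 further subunits lie left of 0, with Mbd2 at -0.70, and Ikzf1 at 0.53 and Chd3 at 0.45 lie right of it.

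Ikaros itself, which recruits NuRD to DNA, moved with Chd3 in direction. Ikzf1 had 313 and 334 CPM in the libraries labelled shMyb, against 226 and 224 CPM in those labelled shLuc (log2 fold change 0.53, SE 0.04, edgeR adjusted p = 1.2e-11). Aiolos, encoded by Ikzf3, had 449 and 459 CPM in the libraries labelled shMyb, against 406 and 387 CPM in those labelled shLuc (0.19, adjusted p = 7.3e-05). Ikzf4 (Eos) and Ikzf5 (Pegasus) fell by 0.28 and 0.15 on the log2 scale (adjusted p = 0.0202 and 0.0085), and these calls ended with library totals (0.072 and 0.109), with DESeq2 (0.159 and 0.0824) and without shLuc replicate 2 (0.138 and 0.107). The Ikzf4 call also ended without shMyb replicate 1 (0.128), and the Ikzf5 call without shMyb replicate 2 (0.103) and with the GC and length trend removed (0.0567). Ikzf2 (Helios) was called higher (adjusted p = 0.0148) on 10 and 15 counts in the libraries labelled shMyb, against 5 and 3 in those labelled shLuc. That call ended with DESeq2 (0.132), without shMyb replicate 2 (0.164) and without shLuc replicate 2 (0.0719).

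Other complexes built on Hdac1 and Hdac2 did not fall as lists. Of 9 CoREST genes, which pair the deacetylases with the demethylase Kdm1a, 6 rose, none fell and 3 did not pass (median 0.16). Phf21a (0.34), Zmym2 (0.26) and Rcor2 (0.23) were among those that rose, and the Rcor2 call ended with the GC and length trend removed (0.11, adjusted p = 0.112). Of 14 SIN3 genes 3 rose, 3 fell and 8 did not pass (median 0.0054). Arid4b (0.46), Arid4a (0.33) and Sap130 (0.15) rose, and Sap30 fell by 0.22. The Sap130 call ended with the GC and length trend removed (0.08, adjusted p = 0.0804). In MiDAC, a mitotic deacetylase complex, the 2 tested genes Dnttip1 (-0.09) and Elmsan1 (0.05) did not pass, although Elmsan1 was called higher with library totals (0.12, adjusted p = 0.0354). These counts stand beside 30.6% higher and 31.7% lower among all tested genes.

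Among relatives of NuRD subunits outside the complex, the counts below stand beside 30.6% higher and 31.7% lower among all tested genes. Of 7 other CHD remodellers 6 rose, none fell and 1 did not pass (median 0.25), among them Chd7 (0.68), Chd2 (0.65), Chd6 (0.39) and Chd8 (0.21, or 0.11 with the GC and length trend removed). Chd2, linked to active transcription, had 182 and 184 CPM in the libraries labelled shMyb, against 121 and 112 CPM in those labelled shLuc. Of 9 other histone deacetylases 6 rose, 1 fell and 2 did not pass (median 0.34). Hdac11, the only class IV enzyme, had 8.93 and 10.5 CPM in the libraries labelled shMyb, against 3.38 and 4.04 CPM in those labelled shLuc (1.39, adjusted p = 3.5e-10). Of genes that averaged 1 to 10 CPM 39.7% were called higher, with a median log2 fold change of 0.21. Hdac5, a class IIa enzyme, had 92.1 and 93.1 CPM, against 54.6 and 55.2 CPM in those labelled shLuc (0.75, adjusted p = 2.6e-14). Hdac10 and Hdac6 rose by 0.40 and 0.37. Of 5 other genes of the methyl-CpG-binding domain (MBD) family 4 rose and none fell (median 0.21). Those that rose were the DNA glycosylase gene Mbd4 at 0.56, Mbd6 at 0.50, Mbd5 at 0.21 and Mbd1 at 0.21. The GC and length trend moved Mbd6 to 0.33 and Mbd5 to 0.13.

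Factors that bring NuRD to chromatin moved both ways. Of 15 recruiting factors 12 were tested, of which 6 rose, 1 fell and 5 did not pass (median 0.16), beside 30.6% higher and 31.7% lower among all tested genes. Bcl6, the germinal centre repressor, rose by 0.83 from a low level, at 6.06 and 5.78 CPM in the libraries labelled shMyb against 3.20 and 3.47 CPM in those labelled shLuc. With the abundance trend removed Bcl6 was at 0.64. The median log2 fold change of genes from 1 to 10 CPM was 0.21, and 39.7% of them were called higher. Zmynd8 and Zfp592, known from human cells as joint partners of NuRD, rose by 0.26 and 0.24, and Zmynd8 was at 0.16 with the GC and length trend removed. Bcl11a, a repressor needed for early B cells, fell by 0.23.

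**Figure D5:**
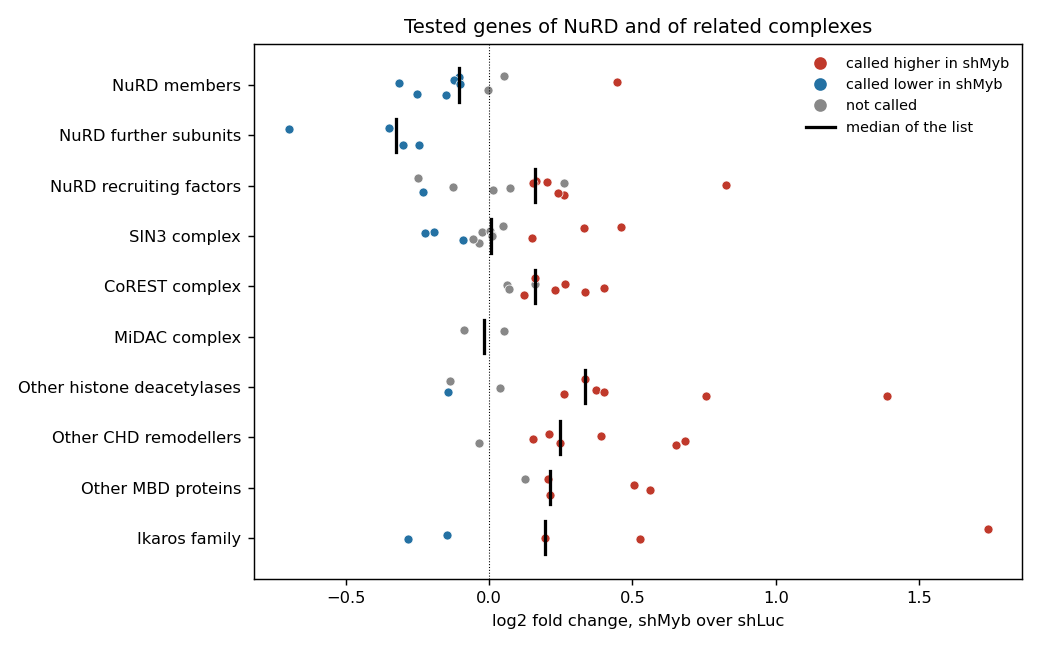
Log2 fold change of libraries labelled shMyb over those labelled shLuc for each tested gene (points, coloured by call) in NuRD and related lists, with the list median as a black bar. The medians of the NuRD members (-0.11) and further subunits (-0.32) lie left of 0, and those of the other histone deacetylases (0.34), CHD remodellers (0.25) and MBD proteins (0.21) lie right of it.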

How the data were processed

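RNA-seq was done on 4 libraries, 2 per group, assigned to group and replicate by title. The deposited values are raw counts per gene symbol, made by the authors. FastQC, STAR, HTSeq, DESeq2 and mm10 are listed without versions or roles, per the submitters' processing notes, while annotation and counting strand are not stated there. The test was that of edgeR 4.0.16 (R 4.3.3), with filterByExpr at a minimum count of 10, TMM scaling, and a quasi-likelihood model of group alone (glmQLFit with robust=TRUE, then glmQLFTest). Calls were made below an adjusted p of 0.05 (Benjamini-Hochberg, 12610 tested genes). A standard error is the log2 fold change over the square root of F. Levels per kilobase use the union of exons in GENCODE M21 (GRCm38), which also gave coordinates, and 95% identical transcript stretches of at least 200 bases counted as copies. Duplicates were not the same library deposited again (chi-square over its degrees of freedom 4.23 between shMyb and 3.76 between shLuc libraries). The members and lists were chosen with earlier results of these data known, so they are described by counts and medians without set tests. Named genes were Myb, the members, all further subunits and Ikaros family genes, and up to 4 genes with the smallest p of each other list, some of which are not reported here. The script was tested on simulated data, where it recovered 16% of 1.1-fold, 78% of 1.25-fold, 70% of 1.5-fold and 90% of 2-fold changes. Recovery was lower at 1.5-fold than at 1.25-fold, for a reason not tested, so these shares give no power for single members. Most 1.1-fold changes were missed, so a member that did not pass the test is not thereby shown to be unchanged. Alternatives were DESeq2 1.42.0, limma-voom (limma 3.58.1), robust=FALSE, library totals, RLE scaling, a filter of 1 CPM in 2 libraries, no filter, a threshold of 0.01, dropping each library in turn, a block on replicate number, a trend on abundance and a trend on GC content and length.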

Additional observations from a re-analysis of the deposited data

How the results depend on the processing

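Chd3, Mta1, Mta2 and Hdac2 kept their direction and call under all 16 alternatives run, with log2 fold changes of 0.28 to 0.51, -0.33 to -0.19, -0.19 to -0.08 and -0.35 to -0.23. The Mbd3 call ended under 1 alternative, and the Hdac1 and Gatad2a calls under 7 each. With library totals 2 members were called higher and 3 lower, beside 4667 and 3103 of the 12610 tested genes. With the abundance trend removed 2 members were called higher and 4 lower, beside 3699 and 4077. With the GC and length trend removed 1 member was called higher and 7 lower, beside 3757 and 3914. Chd4, not called, changed sign with library totals (0.059), with the filter of 1 CPM in 2 libraries (0.0085) and with the abundance trend removed (0.13, called), and ran from -0.0157 to 0.0034 when 1 library was left out. Elmsan1, not called, was called higher with library totals (0.12, adjusted p = 0.0354), was at -0.091 with the GC and length trend removed and ran from -0.00083 to 0.0994 when 1 library was left out. The causes were not tested. Deviations of same-numbered libraries from their group means correlated at -0.25 over tested genes. With 2 libraries per group this is a single correlation, which cannot tell whether the numbers pair the samples. With the replicate block 7341 genes were called, with 1 member higher and 4 lower, where Hdac1 (adjusted p = 0.0638) and Gatad2a (0.0692) were not called. A crossed replicate block, chosen after seeing the data, called 8593 genes, with 1 member higher and 6 lower. With 2 libraries per group the exact test of paralog shares cannot pass, and its directions were the same with each library left out.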
